A study of Mus musculus with 9 samples.

Results

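The 7 genes described here mark neurons of the olfactory bulb, the first relay of the sense of smell. Cdhr1, Doc2g, Eomes and Tbx21 mark its mitral and tufted cells, and Sp8, Tshz1 and Scgn mark its interneurons. They are 7 of 19938 genes measured by a probe set that names 1 gene, and each has 1 such probe set on the array. The genes are known bulb markers and were selected on the log2 values of these same arrays, in all 3 groups, so their values are given as a description and nothing is read from the calls of a test on them. Total RNA from mouse brain, called cortex in the title of the series and brain tissue in the sample labels, was measured on 9 arrays, 1 per biological replicate and 3 per group. The APP-amylin group holds 5xFAD mice that received human amylin, the APP-PBS group 5xFAD mice that received phosphate-buffered saline (PBS), and the WT group B6SJLF1/J wild-type mice that received PBS. The mice of all 3 groups were about 5 months old and were injected into the peritoneum every day for 10 weeks. The 5xFAD line carries mutant human APP under the neuronal Thy1 promoter and forms amyloid plaques early. The labels do not describe how the brain was dissected.

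Mitral and tufted cells are the glutamatergic output neurons of the bulb. They take up input from the olfactory sensory axons in the glomeruli and project to the olfactory cortex. Most other bulb neurons are GABAergic granule and periglomerular interneurons, which arise in the subventricular zone, migrate as neuroblasts and are replaced throughout life. Neither the mitral cells nor these interneurons are residents of the neocortex, although several of the genes are active elsewhere: Tshz1 in the striatum and amygdala, Tbx21 and Eomes in lymphocytes, and Eomes in cortical progenitors of the embryo.

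Array weights estimated by limma over all genes ran from 0.378 to 1.61 in APP-amylin, from 0.673 to 1.443 in APP-PBS and from 1.033 to 1.769 in WT, a lower weight marking an array farther from its group. Xist was between 9.85 and 10.41 on all 9 arrays and the Y-linked gene Kdm5d between 3.14 and 3.33. The cortical list of 11 measured genes averaged 8.81 to 8.85 in APP-amylin, 8.66 to 8.93 in APP-PBS and 8.83 to 8.97 in WT, so cortical markers were present in every sample. The glial genes known from plaques were higher in both 5xFAD groups, with 6 of 7 past the test in APP-amylin against WT and 7 of 7 in APP-PBS against WT. No array was set apart by its label or left out.

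All 7 bulb genes were higher on every 5xFAD array than on every WT array, and the 5xFAD arrays differed far more among themselves than the WT arrays did. Of all genes, 6.8% were higher on all 6 5xFAD arrays than on all 3 WT arrays. On 3 of the 6 5xFAD arrays (APP-amylin replicates 1 and 3, APP-PBS replicate 1) most of the genes were strongly raised, on APP-PBS replicate 3 moderately, and on APP-amylin replicate 2 and APP-PBS replicate 2 only a little. The 4 mitral and tufted genes together stood 1.93, 0.69 and 2.15 log2 above the WT mean in APP-amylin replicates 1, 2 and 3, and 2.17, 0.56 and 1.15 in APP-PBS replicates 1, 2 and 3. The 3 interneuron genes stood 1.38, 0.43 and 1.57 above it in APP-amylin and 1.62, 0.29 and 0.92 in APP-PBS. In tissue RNA, a larger number of bulb neurons in the sample and more of these transcripts per neuron cannot be told apart. The number in the sample also depends on how the brain was dissected, which the labels do not describe.

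**Figure D1:**
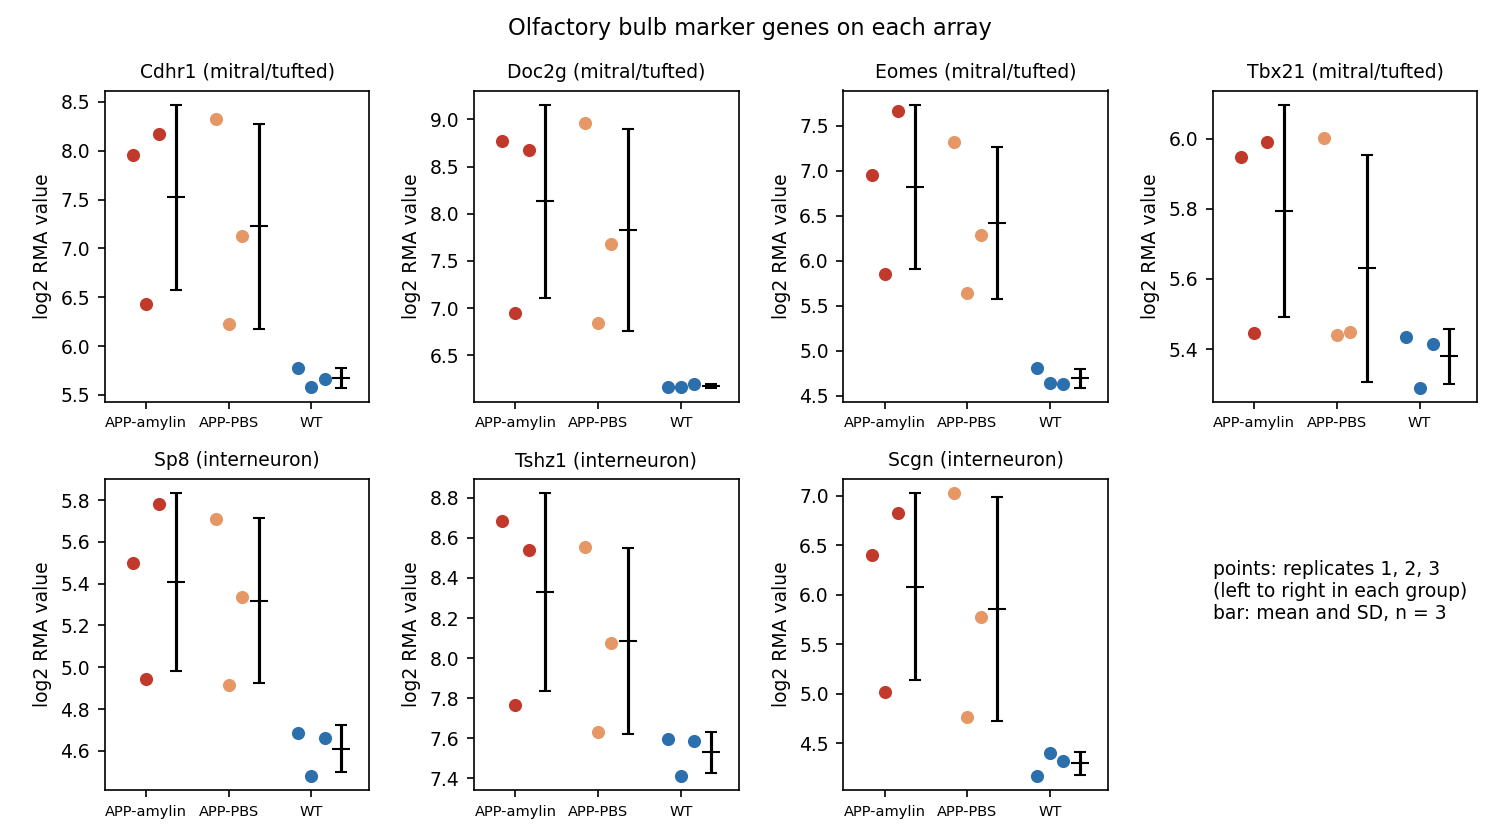
Log2 RMA value of each of the 7 genes (one panel per gene) on each array of the APP-amylin, APP-PBS and WT groups, with the group mean and SD (n = 3) in black. The points of both 5xFAD groups are spread widely and the 3 WT points lie close together below them.

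The mitral and tufted genes are taken first. Cdhr1 encodes a cadherin that is abundant in mitral and tufted cells and in photoreceptors. It measured 7.96, 6.43 and 8.17 in APP-amylin, 8.32, 6.23 and 7.13 in APP-PBS, and 5.78, 5.58 and 5.66 in WT (log2 values, replicates 1 to 3). APP-PBS replicate 1 was the highest, 6.27-fold above the WT mean, and the 5xFAD and WT values did not overlap. The difference was 1.85 ± 0.53 log2 (SE of the limma fit, n = 3 per group) in APP-amylin against WT and 1.55 ± 0.53 in APP-PBS against WT.

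Doc2g belongs to the family of C2-domain proteins that includes the calcium sensors of vesicle release, and its transcript is concentrated in bulb output neurons. It measured 8.77, 6.95 and 8.68 in APP-amylin, 8.96, 6.85 and 7.67 in APP-PBS, and 6.16, 6.17 and 6.20 in WT. The order of the arrays was close to that of Cdhr1, and the WT values spanned only 0.033 log2, against 1.82 in APP-amylin and 2.12 in APP-PBS. Doc2g differed by 1.96 ± 0.56 log2 (SE) in APP-amylin against WT and by 1.65 ± 0.56 in APP-PBS against WT.

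Eomes, also called Tbr2, is a T-box transcription factor that mitral and tufted cells need for their differentiation. It measured 6.95, 5.85 and 7.67 in APP-amylin, 7.32, 5.64 and 6.28 in APP-PBS, and 4.81, 4.64 and 4.63 in WT. The 5xFAD values lay at least 0.84 log2 above the highest WT value, the widest gap among the 7 genes, and APP-amylin replicate 3 reached 7.85-fold over the WT mean. Eomes differed by 2.13 ± 0.47 log2 (SE) in APP-amylin against WT and by 1.73 ± 0.47 in APP-PBS against WT.

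Tbx21, also called T-bet, is a second T-box factor that is active in mitral and tufted cells after birth. It measured 5.95, 5.45 and 5.99 in APP-amylin, 6.0, 5.44 and 5.45 in APP-PBS, and 5.43, 5.29 and 5.42 in WT. Only APP-amylin replicates 1 and 3 and APP-PBS replicate 1 stood clearly above WT, and the lowest 5xFAD value exceeded the highest WT value by just 0.0071 log2. Its difference was 0.41 ± 0.17 log2 (SE) in APP-amylin against WT and 0.25 ± 0.17 in APP-PBS against WT, and without APP-PBS replicate 1 the second value was 0.06.

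Since these genes varied together, the 250 bases before the annotated start of the mitral and tufted genes, and of Scgn as the interneuron gene with the widest swing, are shown for comparison (RefSeq, GRCm38.p6, read 5′ to 3′ on the strand of the gene). Capitals mark the letters AGGTGT, the core that T-box factors bind, or GGGCGG, the GC box bound by zinc finger proteins of the Sp family, each searched on both strands and with overlapping matches counted apart. The windows are chr14:37098348-37098597 (minus strand) for Cdhr1, chr19:4003135-4003384 (plus) for Doc2g, chr9:118477939-118478188 (plus) for Eomes, chr11:97115332-97115581 (minus) for Tbx21 and chr13:23991215-23991464 (minus) for Scgn.
Cdhr1: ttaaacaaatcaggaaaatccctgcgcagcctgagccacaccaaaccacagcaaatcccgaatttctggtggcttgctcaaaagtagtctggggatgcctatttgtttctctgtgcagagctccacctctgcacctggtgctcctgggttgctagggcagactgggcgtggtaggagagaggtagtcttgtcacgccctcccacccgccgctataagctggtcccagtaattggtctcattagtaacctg
Doc2g: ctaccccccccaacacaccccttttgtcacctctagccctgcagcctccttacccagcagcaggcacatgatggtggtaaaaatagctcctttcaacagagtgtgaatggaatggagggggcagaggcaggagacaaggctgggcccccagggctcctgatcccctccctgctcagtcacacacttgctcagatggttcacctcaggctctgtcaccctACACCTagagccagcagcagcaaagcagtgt
Eomes: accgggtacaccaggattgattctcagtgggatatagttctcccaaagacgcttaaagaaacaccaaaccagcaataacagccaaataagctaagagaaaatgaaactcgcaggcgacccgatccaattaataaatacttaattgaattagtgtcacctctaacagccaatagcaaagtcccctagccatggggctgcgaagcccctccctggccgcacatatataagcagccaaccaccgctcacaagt
Tbx21: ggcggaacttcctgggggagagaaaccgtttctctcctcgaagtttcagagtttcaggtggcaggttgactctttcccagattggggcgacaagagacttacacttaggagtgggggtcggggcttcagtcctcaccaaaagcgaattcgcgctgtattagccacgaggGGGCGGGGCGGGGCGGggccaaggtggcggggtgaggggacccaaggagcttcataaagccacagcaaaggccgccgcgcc
Scgn: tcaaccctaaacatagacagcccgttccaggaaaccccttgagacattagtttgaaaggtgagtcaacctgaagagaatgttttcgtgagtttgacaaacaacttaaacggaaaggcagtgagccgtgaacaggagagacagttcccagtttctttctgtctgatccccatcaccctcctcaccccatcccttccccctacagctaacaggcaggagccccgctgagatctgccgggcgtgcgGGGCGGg

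The T-box core was found once before Doc2g and in no other of the 6 genes whose windows were searched (Sp8 with 3 annotated starts), while 11.8% of 32851 windows of the same length in the table hold it. The GC box was found before Tbx21 (3 overlapping matches), Scgn (1 match) and the second start of Sp8 (1 match), and 32.7% of all windows hold it. The 4 mitral and tufted genes thus share neither of these letter strings in these windows, which says nothing about the factors themselves.

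Among the interneuron genes, Sp8 encodes a zinc finger transcription factor required for calretinin-type and other periglomerular interneurons. It measured 5.50, 4.94 and 5.78 in APP-amylin, 5.71, 4.91 and 5.33 in APP-PBS, and 4.69, 4.48 and 4.66 in WT. The groups of 5xFAD and WT arrays did not overlap, and the swing was narrower than for Cdhr1. Sp8 differed by 0.80 ± 0.23 log2 (SE) in APP-amylin against WT and by 0.71 ± 0.23 in APP-PBS against WT.

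Tshz1 is a zinc finger homeobox factor that bulb interneurons need to leave the migratory stream. It measured 8.68, 7.77 and 8.54 in APP-amylin, 8.56, 7.63 and 8.07 in APP-PBS, and 7.59, 7.41 and 7.58 in WT. APP-PBS replicate 2 lay only 0.035 log2 above the highest WT array. The difference was 0.80 ± 0.26 log2 (SE) in APP-amylin against WT and 0.56 ± 0.26 in APP-PBS against WT.

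Scgn encodes secretagogin, a calcium-binding protein of migrating neuroblasts and of granule and periglomerular cells. It measured 6.40, 5.02 and 6.83 in APP-amylin, 7.02, 4.76 and 5.77 in APP-PBS, and 4.17, 4.40 and 4.32 in WT. APP-PBS replicate 1 was 6.62-fold above the WT mean and APP-PBS replicate 2 was 1.38-fold above it, so arrays of the same group were farther apart than the means of APP-PBS and WT. Scgn differed by 1.78 ± 0.55 log2 (SE) in APP-amylin against WT and by 1.56 ± 0.55 in APP-PBS against WT.

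The width of the swing divided the genes. The SD inside groups, pooled over the 3 groups, was 0.82 for Cdhr1, 0.85 for Doc2g, 0.72 for Eomes and 0.85 for Scgn, but 0.39 for Tshz1, 0.34 for Sp8 and 0.26 for Tbx21. The median over all 19938 genes was 0.088, and 99.9% of genes had a lower SD than Eomes. For each log2 unit by which Cdhr1 moved inside groups, Doc2g moved by 1.03, Scgn by 1.03, Eomes by 0.86, Tshz1 by 0.47, Sp8 by 0.41 and Tbx21 by 0.30. The division did not follow the cell class, since Scgn swung as widely as Cdhr1, and Tbx21 was the narrowest. The SD of the WT arrays alone was between 0.018 (Doc2g) and 0.12 (Scgn) for the 7 genes.

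The mean of all 3 arrays per group answers how the groups compare. In APP-amylin against WT the differences ran from 0.41 to 2.13 log2 with a median of 1.78, beside a median of -0.01 over all genes, and in APP-PBS against WT from 0.25 to 1.73 with a median of 1.55, again beside -0.01. Both comparisons use the same WT arrays. In 7 of 7 genes the 5xFAD values of either group lay wholly above those of WT, as in 10.8% of all genes for APP-amylin and 11.2% for APP-PBS. In the limma fit over all genes (Benjamini-Hochberg adjusted p under 0.05), Eomes alone was called higher in APP-amylin against WT, where 2.35% of genes were, and 0 of 7 in APP-PBS against WT, where 3.66% were. At an unadjusted p under 0.05 the fit counted 7 of 7 in APP-amylin against WT and 5 of 7 in APP-PBS against WT. The share of all genes at that unadjusted level was not counted, so these numbers have no background. Because the genes were chosen with these values known, nothing is read from those counts.

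Amylin and PBS treatment of 5xFAD mice gave overlapping values for all 7 genes, while 5.49% of all genes were higher on every APP-amylin array than on every APP-PBS array. The APP-amylin means were the higher ones, by 0.09 (Sp8) to 0.40 (Eomes) log2, and for 7 of 7 genes that difference was smaller than the SD inside groups. For Cdhr1 the means were 7.52 ± 0.95 in APP-amylin and 7.23 ± 1.05 in APP-PBS (SD, n = 3 each), with a difference of 0.30 ± 0.53 (SE). Its sign rested on single arrays: without APP-PBS replicate 2 it was -0.20, and without APP-amylin replicate 3 it was -0.03. With array weights, the lowest being that of APP-amylin replicate 1 (0.378), it was -0.21. The differences of Doc2g, Eomes, Sp8, Tshz1 and Scgn also turned negative with these weights, and that of Tbx21 stayed positive (0.04). The limma fit called 0 of 7 genes here, where it called 0.00502% of all genes higher. At an unadjusted p under 0.05 it counted 0 of 7, and the share of all genes at that level was not counted.

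**Figure D2:**
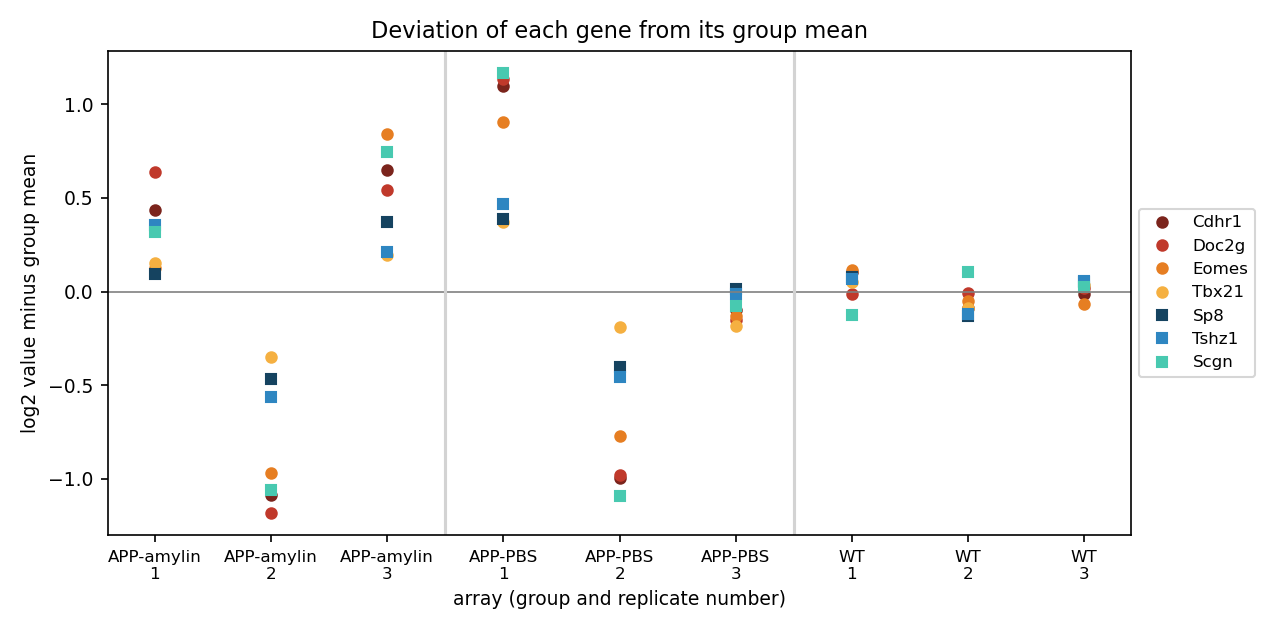
Log2 value of each gene minus the mean of its own group, on each of the 9 arrays (group and replicate number on the horizontal axis); circles are mitral and tufted genes and squares are interneuron genes. On APP-amylin replicate 2 and APP-PBS replicate 2 all 7 genes lie below their group mean, on APP-PBS replicate 1 all lie above it, and the WT points stay near 0.

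The 7 genes varied together inside the groups. APP-PBS replicate 2 was the lowest 5xFAD array for 7 of 7 genes, and the highest array was APP-PBS replicate 1 for 4 genes, APP-amylin replicate 3 for 2 and APP-amylin replicate 1 for 1. With each group's mean taken off, Pearson's r between pairs of genes over the 9 arrays ran from 0.91 to 0.99 with a median of 0.94 over 21 pairs, and Spearman's rho from 0.82 to 1 with a median of 0.93. These are descriptions with no p, since the genes were chosen with the values known, and the 9 values share 3 group means. Over the 6 arrays of 5xFAD mice alone r ran from 0.91 to 1.00.

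Mitral and tufted genes went with interneuron genes as closely as with each other. The median r was 0.94 over the 6 pairs of mitral and tufted genes, 0.94 over the 3 pairs of interneuron genes and 0.97 over the 12 pairs between the classes. The means of the classes correlated at r = 0.99 (rho = 0.97), and at 0.98 without APP-amylin replicate 2 and APP-PBS replicate 1, the 2 arrays farthest from the median. For single pairs the relation was looser without those arrays: the median r was 0.70, ranging from -0.03 (Tbx21 with Scgn) to 0.92 (Cdhr1 with Doc2g). The median was 0.44 among mitral and tufted pairs, 0.68 among interneuron pairs and 0.83 between the classes. Pairs with Tbx21 and some others loosened, such as Eomes with Tshz1 (0.40). These r come from the 7 arrays left, with the group means taken again. Of the 5xFAD arrays left, APP-PBS replicates 2 and 3 lay farthest apart inside a group (mean of the 7 genes minus group mean, -0.70 and -0.09). Values without the 2 farthest arrays, here and below, therefore rest largely on that pair. Among the 3 WT arrays, where the genes hardly moved, r took both signs, with 14 of 21 pairs above 0.

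Other markers of the bulb varied in the same way in part. Their lists hold none of the 7 genes but were chosen with earlier results of these data known. The shares below are therefore a description and no independent support. Of 65 measured genes on the 6 bulb lists, 22 (33.8%) followed the mean of the 7 genes inside groups with r of at least 0.8, as did 2.31% of all genes, and the median r was 0.58 beside -0.07 over all genes. The share was 12 of 22 for interneuron genes, 3 of 9 for mitral and tufted genes, 2 of 8 for neuroblast genes, 2 of 7 for ensheathing glia, 2 of 10 for sensory neurons and 1 of 9 for genes that guide neuroblasts. Gad1, the GABA-synthesizing enzyme, followed most closely of these (r = 0.99), and its WT values varied with an SD of only 0.02. The striatal list, given for comparison, had a median r of 0.51, with 2 of 10 genes at 0.8 or more. Dcx, the microtubule protein of migrating neuroblasts, had r = 0.96, Sox4 0.96, and the homeobox genes Dlx1 and Dlx5 0.96 and 0.93. Without the 2 farthest arrays 9 of the 22 genes still had r of at least 0.8, Gad1, Dcx, Sox4 and Dlx1 among them, and the values of the 22 ran from -0.24 (St8sia4) to 0.98 (Synpr). The other 13, such as Dlx5 (0.17), Dlx2 (0.18), Pax6 (0.43) and Meis2 (0.49), had a lower r without those arrays. The median r of all 65 genes was 0.40 without them.

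**Figure D3:**
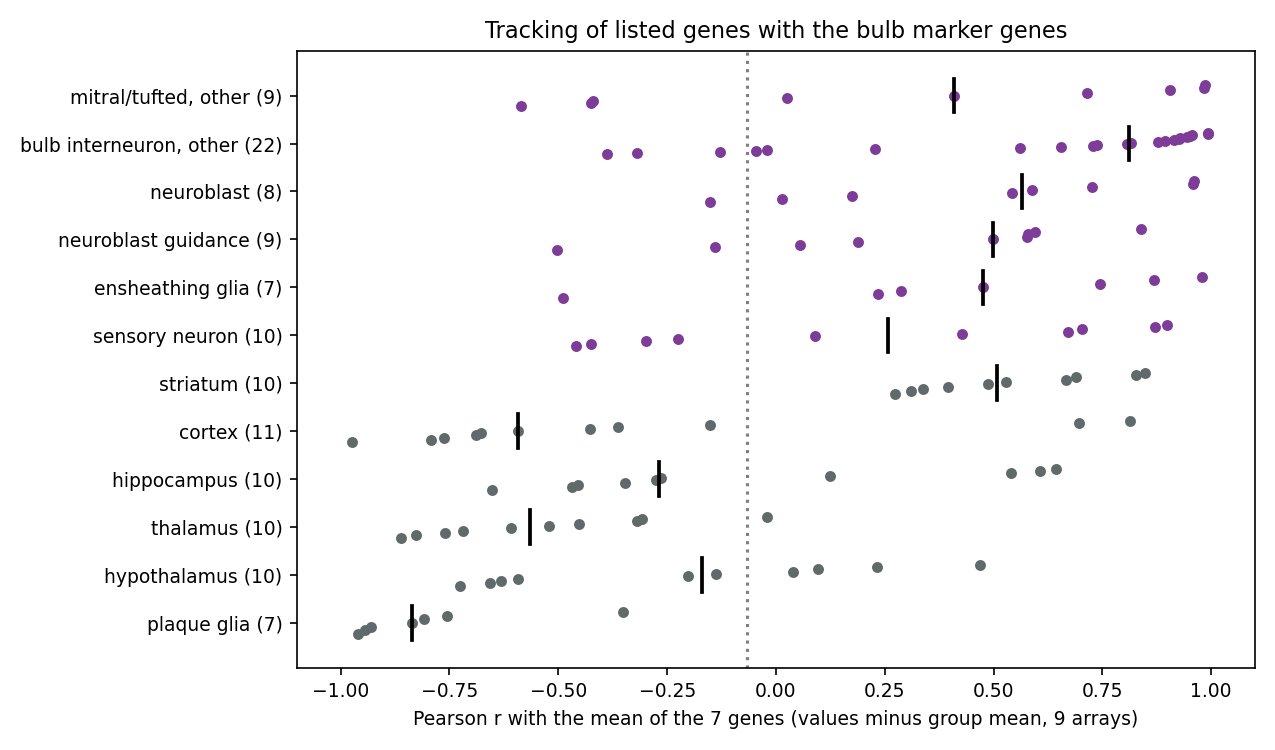
Pearson's r of each listed gene with the mean of the 7 bulb genes, after the group means were taken off, over 9 arrays; each point is a gene, black bars are list medians, the dotted line is the median of all genes and the number of genes measured stands in brackets. The other interneuron genes have a median of 0.81, while the median of the plaque glia list is -0.84.

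Tested between groups, the bulb lists moved in both directions. In APP-amylin against WT 6 of 65 genes rose and 4 fell, and in APP-PBS against WT 6 rose and 7 fell; of all genes, 2.35% rose and 2.86% fell in APP-amylin against WT, and 3.66% rose and 4.92% fell in APP-PBS against WT. The list's median difference was 0.20 log2 in APP-amylin against WT and 0.15 in APP-PBS against WT, beside -0.01 over all genes in both. In APP-amylin against APP-PBS 0 of 65 passed (2 at an unadjusted p under 0.05, a level not counted over all genes), with a median of 0.06.

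Interneuron genes made up 5 of the 6 increases in APP-amylin and 3 of the 6 in APP-PBS. Meis2, a homeobox factor of bulb granule cells that is also abundant in striatal neurons, averaged 10.77 ± 0.40 in APP-amylin, 10.56 ± 0.27 in APP-PBS and 9.44 ± 0.16 in WT (SD, n = 3 each). It rose by 1.33 ± 0.19 log2 (SE, limma adjusted p = 0.00518) in APP-amylin and by 1.12 ± 0.19 (adjusted p = 0.00766) in APP-PBS. Dlx6, a homeobox factor of GABAergic neurons, rose by 1.13 ± 0.13 in APP-amylin (adjusted p = 0.00136) and by 1.00 ± 0.13 in APP-PBS (adjusted p = 0.00158). Both also passed under each of the 18 alternatives, and both are shared with striatal neurons. Striatal markers moved with them: 9 of 10 striatal genes rose in each 5xFAD group against WT, and the mean of the striatal list stood 1.23 to 1.37 log2 above WT in APP-amylin and 1.31 to 1.50 above WT in APP-PBS. Among them were Rgs9, a regulator of G protein signalling (2.21 in APP-amylin and 2.31 in APP-PBS), the phosphodiesterase gene Pde10a (1.68 in APP-amylin and 1.74 in APP-PBS), the receptor gene Gpr6 and the retinoic acid receptor gene Rarb. The part of striatal RNA in the values of the interneuron genes was not tested.

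Dlx1, Dlx5 and the thyrotropin-releasing hormone gene Trh rose in APP-amylin against WT by 1.19, 1.11 and 1.76 log2 (adjusted p = 0.0452, 0.0387 and 0.0358). Each passed in 11 of 18 alternatives, and the 3 genes did not pass in APP-PBS against WT (adjusted p = 0.104, 0.0902 and 0.12). Synpr, a synaptic vesicle protein, rose by 0.59 ± 0.13 log2 (adjusted p = 0.0219) in APP-PBS, did not pass in APP-amylin (0.49 ± 0.13, adjusted p = 0.062), and passed in 13 of 18 alternatives for APP-PBS. Etv1, a transcription factor of bulb interneurons and of deep cortical layers, fell by 0.37 on the log2 scale in APP-PBS (adjusted p = 0.0257; 14 of 18 alternatives passed) and differed by -0.25 in APP-amylin (adjusted p = 0.13). Gad1, which followed the 7 genes so closely inside groups, differed by 0.26 ± 0.14 in APP-amylin and 0.11 ± 0.14 in APP-PBS and passed in neither (adjusted p = 0.37 in APP-amylin and 0.755 in APP-PBS).

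The other mitral and tufted genes split. Of 9 measured, 0 rose and 2 fell in APP-amylin against WT, beside 2.35% and 2.86% of all genes. In APP-PBS against WT 0 rose and 3 fell, beside 3.66% and 4.92%. The median difference of the list was -0.17 log2 in APP-amylin and -0.16 in APP-PBS. Tbr1 (0.10 in APP-amylin and 0.06 in APP-PBS), Barhl2 (-0.17 and -0.16) and Reln (0.25 and 0.17) did not pass against WT. Nmb, the neuromedin B gene of tufted cells, measured 6.80, 5.70 and 7.02 in APP-amylin, 7.21, 5.92 and 6.52 in APP-PBS, and 5.61, 5.58 and 5.38 in WT, and Ms4a15 went the same way, with r = 0.99 and 0.98 to the 7 genes. Neither passed the test against WT, with an adjusted p of 0.173 and 0.0996 in APP-amylin and 0.13 and 0.166 in APP-PBS. Slc17a6, the vesicular glutamate transporter that mitral cells share with thalamic neurons, fell by 1.18 on the log2 scale in APP-amylin (adjusted p = 0.019; 13 of 18 alternatives passed) and by 1.22 in APP-PBS (adjusted p = 0.0117). Without WT replicate 1 the APP-PBS fall of Slc17a6 did not pass (adjusted p = 0.0571). Uncx, a homeobox factor, fell by 0.28 in APP-PBS (adjusted p = 0.046; 6 of 17 alternatives passed) and differed by -0.21 in APP-amylin (adjusted p = 0.158), and Lhx5 did not pass (adjusted p = 0.308 in APP-amylin and 0.126 in APP-PBS). Ntng1, an axonal adhesion molecule also strong in thalamic neurons, fell by 0.93 in APP-amylin (adjusted p = 0.00614) and by 1.00 in APP-PBS (adjusted p = 0.00281). The mean of the thalamic list moved with them, at 0.55 to 1.17 log2 below WT in APP-amylin and 0.82 to 0.96 below WT in APP-PBS, and its part in these values was not tested.

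Genes that steer neuroblasts into the bulb had a median r of 0.50 with the 7 genes inside groups, and of 0.09 without the 2 farthest arrays, and 2 of 9 fell in APP-amylin against WT and 3 of 9 in APP-PBS against WT. Slit1, a repellent for migrating neuroblasts made in septum and cortex, fell by 0.83 on the log2 scale in APP-amylin (adjusted p = 0.00189) and by 1.05 in APP-PBS (adjusted p = 0.000388), and Ncam1, the carrier of polysialic acid, fell by 0.34 in APP-amylin (adjusted p = 0.00615) and by 0.41 in APP-PBS (adjusted p = 0.00168). Tnr, the extracellular matrix protein tenascin-R, fell by 0.26 in APP-PBS (adjusted p = 0.0414; 8 of 18 alternatives passed) and differed by -0.18 in APP-amylin (adjusted p = 0.169). St8sia4, which adds polysialic acid to Ncam1, did not pass (adjusted p = 0.177 in APP-amylin and 0.21 in APP-PBS). Prokr2, the prokineticin receptor through which neuroblasts are drawn into the bulb, averaged 5.56 ± 0.18 in APP-amylin, 5.43 ± 0.06 in APP-PBS and 5.38 ± 0.06 in WT (SD, n = 3 each) and did not pass (adjusted p = 0.277 in APP-amylin, 0.812 in APP-PBS). Top2a, a gene of dividing cells, rose by 0.35 ± 0.08 in APP-PBS (adjusted p = 0.0222; 10 of 16 alternatives passed) and did not follow the bulb genes (r = -0.15). Cd24a and Mki67 of the neuroblast list, and Frzb, Npy and Islr of the ensheathing glia list, did not pass in either 5xFAD group (for Islr, adjusted p = 0.393 in APP-amylin and 0.0884 in APP-PBS).

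Of the genes of olfactory sensory neurons, whose axons form the outer layer of the bulb, Ano2, a calcium-gated chloride channel, rose by 0.66 ± 0.13 log2 in APP-amylin (adjusted p = 0.0209, with 13 of 17 alternatives passing) and by 0.72 ± 0.13 in APP-PBS (adjusted p = 0.00957). Gnal, the olfactory G protein that striatal neurons use as well, rose by 0.51 ± 0.12 in APP-PBS (adjusted p = 0.028, with 14 of 18 alternatives passing) and differed by 0.43 ± 0.12 in APP-amylin, which did not pass (adjusted p = 0.075). Omp, the marker of mature sensory neurons, measured 6.58, 5.51 and 6.22 in APP-amylin, 6.92, 5.57 and 5.68 in APP-PBS, and 5.61, 5.51 and 5.30 in WT. Omp was thus highest on the arrays where the bulb genes were highest (r = 0.90, and -0.01 without the 2 farthest arrays). It did not pass the test, like Cnga4 and Adcy3 of the same list (for Omp, adjusted p = 0.391 in APP-amylin and 0.415 in APP-PBS).

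The genes most like the 7 were then looked for among the 218 other genes with an SD of at least 0.3 log2 inside groups. Of these, 27 (12.4%) had r of at least 0.9 with the mean of the 7 genes. The 10 highest were Nmb, Ms4a15, Myo16, Cacng5, S100a5, Frmd7, Fabp7, Pcbp3, Lgr5 and Vipr2, with r from 0.97 to 0.99 over 9 arrays and from 0.74 to 0.99 without the 2 farthest arrays. S100a5, a calcium-binding protein of olfactory sensory neurons, swung the most of them: it measured 7.62, 5.33 and 7.51 in APP-amylin, 8.30, 5.48 and 6.21 in APP-PBS, and 4.96, 5.11 and 5.10 in WT. Fabp7, a fatty acid-binding protein of olfactory ensheathing glia and other glia, measured 10.98, 10.26 and 10.96 in APP-amylin, 11.47, 10.28 and 10.74 in APP-PBS, and 10.43, 10.45 and 10.37 in WT. For Fabp7 the 2 lowest 5xFAD arrays therefore lay below every WT array, unlike for the 7 genes.

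Several microglial genes lay at the opposite end. The 10 genes with the lowest r were Trem2, Cst7, Tyrobp, Mpeg1, Klhl6, Dnah6, Trim30a, Cd180, Serpina3n and Mir487b, with r from -0.96 to -0.87. Trem2, the lipid-sensing receptor of microglia, measured 7.42, 8.37 and 7.60 in APP-amylin, 7.50, 8.63 and 7.93 in APP-PBS, and 6.41, 6.41 and 6.38 in WT. It was highest on the 2 5xFAD arrays where the bulb genes were lowest (r = -0.96, and -0.83 without the 2 farthest arrays). Cst7, a cysteine protease inhibitor of plaque-associated microglia, had r = -0.94 and measured 8.58, 9.15 and 8.34 in APP-amylin, 8.71, 10.03 and 9.48 in APP-PBS, and 4.34, 4.40 and 4.71 in WT. All 7 genes of the plaque glia list had r below 0, as did 11027 of the 19936 genes with a value. Of the 7, 5 were at or below -0.8, as were 574 of the 19936. Without the 2 farthest arrays 3 of the 7 turned to positive values, Itgax (0.67), Clec7a (0.35) and Lyz2 (0.34), while Tyrobp (-0.81) and Cst7 (-0.81) did not, and of the 10 lowest genes Dnah6 did (0.07). The mean of that list stood 1.74 to 2.36 log2 above WT in APP-amylin and 2.03 to 2.81 above WT in APP-PBS; its part in the variation of the bulb genes was not tested.

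**Figure D4:**
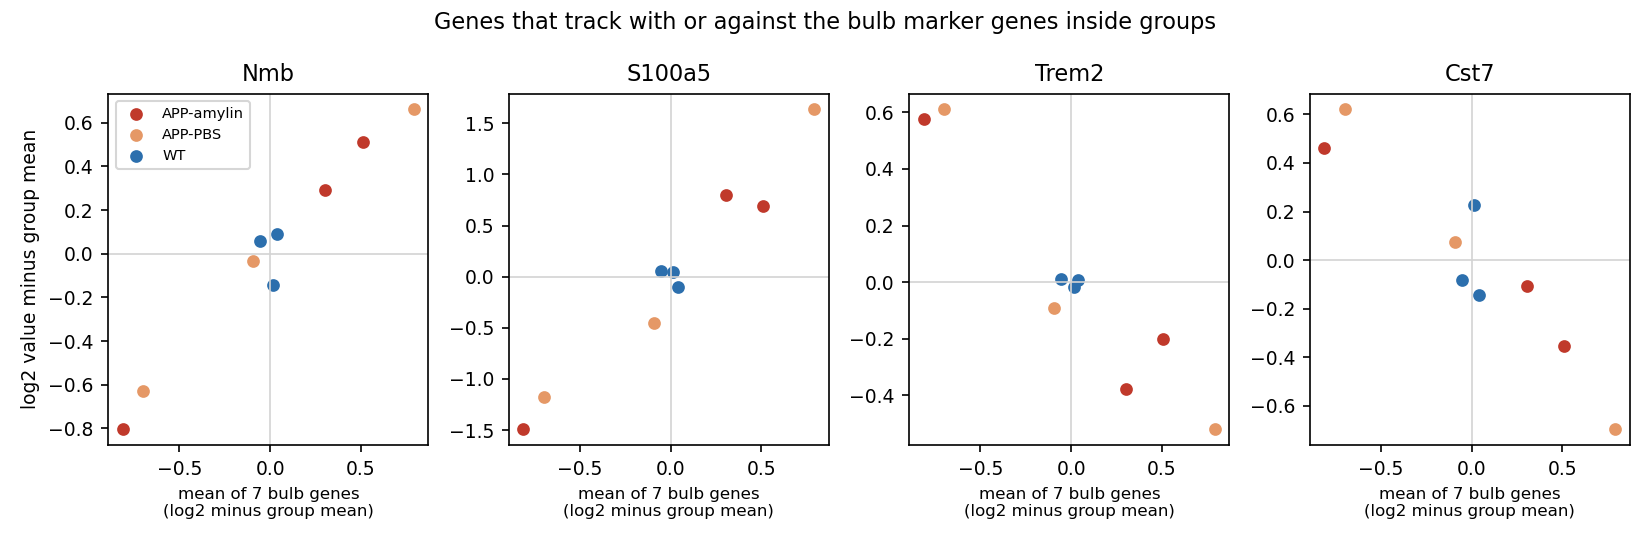
Log2 value minus group mean of Nmb, S100a5, Trem2 and Cst7 (vertical axes) against the mean of the 7 bulb genes minus its group mean (horizontal axes), 1 point per array. Nmb and S100a5 run upward, Trem2 and Cst7 run downward, and the WT arrays cluster near the origin.

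The 7 bulb genes were selected on these values, and their class means hold fewer genes than the region lists. Beside them, the striatal and hippocampal lists differed between 5xFAD and WT with a narrower range inside groups, which was not so for every region. Beside the striatal values given above, the hippocampal list lay 0.81 to 0.96 below WT in APP-amylin and 0.87 to 0.97 below WT in APP-PBS. The thalamic list ran more widely in APP-amylin (0.55 to 1.17 below WT) than in APP-PBS (0.82 to 0.96 below WT). The hypothalamic list ran from -0.14 to 0.88 against WT in APP-amylin and from -0.36 to -0.01 in APP-PBS, and the cortical list overlapped between 5xFAD and WT. The 4 mitral and tufted genes ran from 0.69 to 2.15 above WT in APP-amylin and from 0.56 to 2.17 in APP-PBS. The list of other mitral and tufted genes ran from -0.18 to 0.05 against WT in APP-amylin and from -0.32 to 0.15 in APP-PBS. The list of other interneuron genes ran from 0.34 to 0.65 in APP-amylin and from 0.07 to 0.75 in APP-PBS. Of striatal genes 2 of 10 followed the bulb genes with r of at least 0.8, and of cortical genes 1 of 11, with a median r of 0.51 and -0.59. In the group-centred values of the other 19931 genes, the second principal component held 25.5% of the variance and correlated with the mean of the 7 genes at an absolute r of 0.97, while the first held 29.2% and correlated at 0.04.

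**Figure D5:**
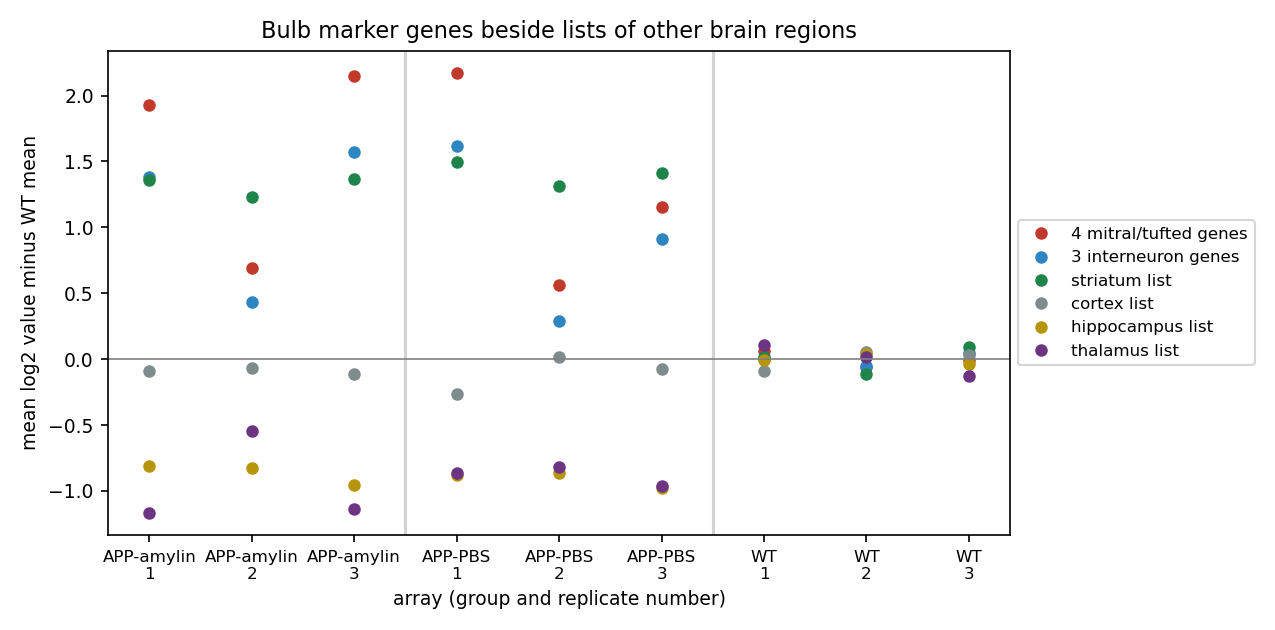
Mean log2 value minus the WT mean of the 4 mitral and tufted genes, the 3 interneuron genes and the lists of striatal, cortical, hippocampal and thalamic genes, on each of the 9 arrays. The striatal points of 5xFAD arrays lie between 1.23 and 1.50, while the means of the bulb genes, which were selected on these values, run from 0.29 to 2.17.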

How the data were processed

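The deposited table holds log2 intensities of 35556 probe sets on 9 arrays. Per the submitters' processing notes the authors made these log2 values with RMA in the R package oligo (versions not given in the sources used here): background correction, quantile normalization across arrays and summary per probe set. With 3 arrays a group the precision is low, and forcing equal quantiles can damp shifts common to many genes. Probe sets were named through the platform annotation and the RefSeq genes of GRCm38.p6 (names only); 21789 name 1 gene, and of several per gene the one with the highest mean was kept, which left 19938 genes. Groups were compared with limma 3.58.1 (R 4.3.3) in 1 fit of 9 arrays (6 residual degrees of freedom) with Benjamini-Hochberg adjustment over all genes at 0.05, and no filter on low values. The fit was tested on simulated data.

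The 7 genes and the 13 gene lists (136 symbols, 127 measured; 69 and 65 on the 6 bulb lists) were chosen with earlier results of these data known, and the lists hold none of the 7. Genes named were the 7, the 4 genes of each bulb list and the striatal list with the smallest p in APP-PBS against WT (the same rule held for the other lists, which are given mainly as list values), and the 10 most and 10 least correlated genes with a pooled SD of at least 0.3; other named list members were picked after their values were seen. P-values rest on 1 spread per gene between biological replicates, pooled over the 3 groups and drawn by limma toward a value shared across genes. They do not measure the spread of a single group: for Doc2g the SE was 0.56 in both comparisons with WT, although its SD was 0.018 in WT and 1.07 in APP-PBS. Correlations of group-centred values across genes between same-numbered replicates ran from -0.06 to 0.18, with 4 of 9 above 0.1. Different-numbered replicates were not compared with them, so whether the numbers mark pairs or batches was not tested.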

Additional observations from a re-analysis of the deposited data

How the results depend on the processing

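Every difference of the 7 genes against WT kept its sign under all alternatives (quantile normalization repeated, median centring, the lowest 25% or 50% of genes left out, another prior, 2 groups only, array weights, replicate block, mean of probe sets, each array left out). Those of APP-amylin against APP-PBS changed sign in 15 of 122 values and ran from -0.32 to 0.89. Without APP-PBS replicate 1 the APP-PBS differences against WT shrank to 1.00 for Cdhr1, 1.08 for Doc2g, 0.97 for Scgn, 0.32 for Tshz1 and 0.06 for Tbx21. With array weights the APP-amylin difference of Tbx21 was 0.28.

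The bulb list genes called higher were 13 in APP-amylin against WT and 13 in APP-PBS against WT with the replicate block. Whether a shared replicate number marks a pair or a batch was not tested. The count was 12 in APP-amylin against WT with the lowest 50% of genes left out (44 of the list genes fitted). With array weights it was 11 in APP-PBS against WT. Leaving out 1 array gave 2 to 12 higher and 3 to 5 lower in APP-amylin against WT, and 3 to 10 higher and 4 to 5 lower in APP-PBS against WT. The higher counts were 11 without APP-amylin replicate 2, 12 without APP-PBS replicate 1 and 2 without APP-amylin replicate 1 or 3 or WT replicate 1 or 2, each in APP-amylin against WT. In APP-PBS against WT they were 10 without APP-PBS replicate 2 and 3 without APP-PBS replicate 1 or WT replicate 1. The cause was not tested. The median r between the 7 genes ran from 0.90 to 0.98 when 1 array was left out. No array file with background or detection values was used here, so low signals such as those of Tbx21 and Sp8 have no detection limit.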

Other observations

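A hypothalamic peptide gene set one of the 2 low arrays apart. Pmch, the precursor of melanin-concentrating hormone, measured 4.43, 9.35 and 4.39 in APP-amylin, 4.69, 4.50 and 4.35 in APP-PBS, and 7.33, 7.76 and 6.16 in WT (log2 values, replicates 1 to 3). APP-amylin replicate 2, where the bulb genes were low, thus held the highest value of the series, while APP-PBS replicate 2, where they were lower still, did not stand out. Hcrt, the orexin precursor, was likewise highest on APP-amylin replicate 2, at 6.97 against 5.61 and 5.40 on the other APP-amylin arrays. Oxt, the oxytocin gene, rose by 1.40 ± 0.32 log2 in APP-amylin against WT (limma adjusted p = 0.0369) and did not pass in APP-PBS against WT (0.52 ± 0.32, adjusted p = 0.42).

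Th, the rate-limiting enzyme of dopamine synthesis in periglomerular cells and in midbrain neurons, measured 7.71, 6.60 and 7.73 in APP-amylin, 8.30, 5.86 and 6.83 in APP-PBS, and 7.86, 6.22 and 6.16 in WT. In the 5xFAD groups it went with the bulb genes, but WT replicate 1 was also high, where the bulb genes were not. Among the 13767 probe sets without a single gene name, 2485 had an SD of at least 0.3 inside groups, of which 6 had r of at least 0.9 with the mean of the 7 genes and 13 had r of -0.9 or lower.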
